A study of Caenorhabditis elegans with 30 samples.

Results

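The cytosolic ribosomal protein genes of *C. elegans* were taken as all genes whose symbol starts with rpl-, rps- or rla- followed by a number. Of the 46934 genes counted, 81 met this rule: 47 rpl genes for proteins of the large subunit, 31 rps genes for proteins of the small subunit, and the 3 rla genes rla-0, rla-1 and rla-2 for the acidic P proteins of the ribosomal stalk. They were spread over all 6 chromosomes of WBcel235, with 25 on I, 10 on II, 18 on III, 18 on IV, 8 on V and 2 on X. In every fit 80 of the 81 had enough reads to be tested. The exception was rpl-42 (WBGene00004455, II:11092713-11094022), which had 0 to 8 reads per library and 0 reads in 11 of the 30 libraries.

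Each ribosome holds a single copy of most of these proteins, with the stalk proteins P1 and P2 present in more than 1 copy, so cells make them in matched amounts. In mammals their production is governed largely at translation, downstream of the TOR kinase. Their mRNAs are among the most abundant in a growing cell. Ribosome assembly factors, which act in the nucleolus and do not stay in the mature particle, and the separate set of mitochondrial ribosomal proteins serve here as groups to compare with. In *C. elegans*, lower expression of several ribosomal protein or translation factor genes in adults is known to lengthen life.

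The study compared germline-less worms without the chromatin factors SET-26 or HCF-1, whose loss extends lifespan, and asked whether reducing the histone deacetylase HDA-1 opposes their effects on gene expression. RNA from pooled whole worms was read by 3′ end sequencing at days 1, 3 and 12 of adulthood. The mutant strains were *glp-1(e2141);set-26(tm2467)* and *glp-1(e2141);hcf-1(pk924)*, called *set-26(-)* and *hcf-1(-)* below, and the control was *glp-1(e2141)* alone, so every worm carried the temperature-sensitive *glp-1* mutation that removes most of the germline. Worms ate L4440 empty vector (EV) bacteria until day 1 and then either *hda-1* RNAi or EV bacteria, which gave 15 groups of 2 libraries: 3 genotypes on EV at day 1, and 3 genotypes on either food at days 3 and 12. Each genotype was 1 strain. In bulk RNA of this kind, fewer cells of a type and less RNA per cell cannot be told apart.

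The libraries held 6045498 to 17748121 reads in genes (median 8323966). Reads of *hcf-1* matched its labels, with 1.08 to 3.32 counts relative to 1000000 reads in genes (CPM) in the 10 *hcf-1(-)* libraries and 4.36 to 20.9 CPM in the other 20. Reads of *set-26* did not separate the genotypes (11.8 to 23.3 CPM in *set-26(-)* libraries, 7.62 to 21.6 CPM in the rest), so they do not check that label. Where these reads lie relative to the mutation was not tested. Reads of *hda-1* were higher with RNAi, at 252 to 1929 CPM in the 12 libraries labelled *hda-1* RNAi, against 20.2 to 116 CPM in the 18 on EV. The origin of these reads was not tested. By other methods the paper reported depletion of *hda-1* RNA (qRT-PCR) and a marked decrease of HDA-1 protein on this RNAi, weaker in germline-less worms. The germline markers were low throughout, with 18 genes summing to 45.4 to 120 CPM and the sperm protein gene *msp-19* at 0 in every EV library.

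The members together took 6.30% to 18.5% of the reads of a library. On EV the mean share of each genotype was highest at day 1 and lowest at day 3. At day 1 it was 18.5% and 13.6% in *set-26(-)* (replicates 1 and 2), 17.9% and 14.9% in *hcf-1(-)*, and 13.2% and 9.83% in controls. At day 3 on EV it was 7.80% and 6.30% in *set-26(-)*, 10.4% and 8.18% in *hcf-1(-)*, and 7.29% and 6.90% in controls. At day 12 on EV it was 9.79% and 9.01% in *set-26(-)*, 11.9% and 11.4% in *hcf-1(-)*, and 11.6% and 10.3% in controls. Both mutants lay above controls at day 1, without overlap, while at day 12 *set-26(-)* lay below controls. Replicate 1 exceeded replicate 2 in all 3 genotypes at day 1, by a median over members of 0.50, 0.37 and 0.47 on the log2 scale in *set-26(-)*, *hcf-1(-)* and controls. That spread within a group is about as large as many of the differences between groups below. The share was also higher in replicate 1 in every group at days 3 and 12 but 1, *hcf-1(-)* labelled *hda-1* RNAi at day 3 (9.65% and 9.67%).

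**Figure D1:**
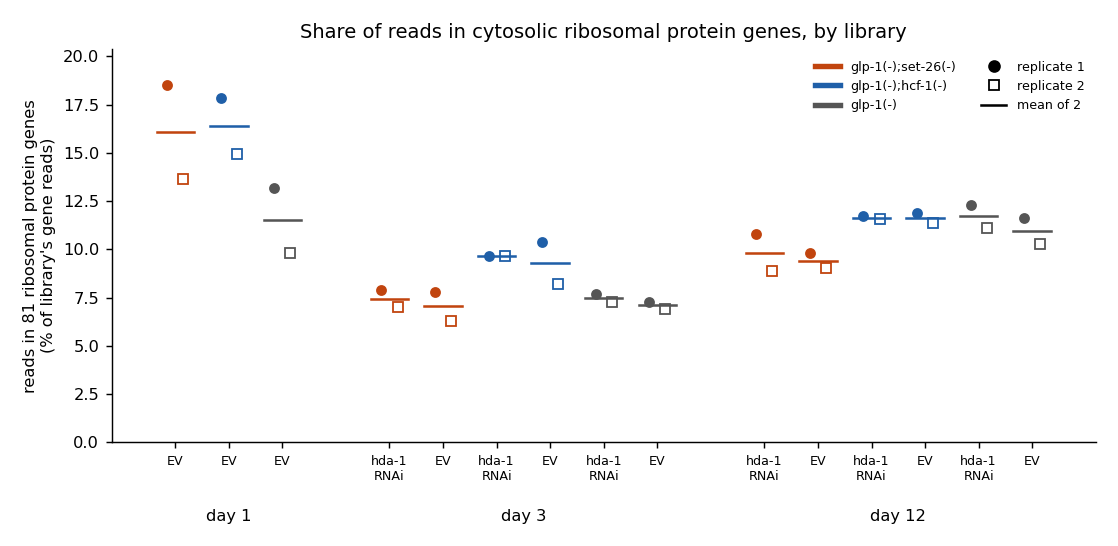
Share of gene reads falling in the 81 ribosomal protein genes (percent, axis from 0) in each of the 30 libraries, by day, genotype and food; circles are replicate 1, squares replicate 2 and lines the mean of 2. Day 1 libraries sit between 9.83% and 18.5%, day 3 libraries between 6.30% and 10.4% and day 12 libraries between 8.88% and 12.3%.

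A share depends on all other RNAs in the library, so the level of each gene was also compared after scaling by the trimmed mean of M values (TMM), which holds the bulk of genes level. The TMM factors differed with age, at 0.65 to 0.99 at day 1, 0.76 to 1.04 at day 3 and 1.11 to 1.30 at day 12. In controls the share at day 12 (10.96% ± 0.98) was close to that at day 1 (11.5% ± 2.39; SD, n = 2 each), although relative to the other genes the median member was at 0.53 times its day 1 level. All fold changes below are on the TMM scale unless another is named, and were tested by quasi-likelihood in edgeR, with p-values adjusted by Benjamini-Hochberg over all genes tested. A gene is said to have risen or fallen where its adjusted p was under 0.05.

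Over the 15 groups, the group means of a member spanned a median of 1.56 on the log2 scale. For 79 of the 80 the highest group was at day 1, and the lowest was at day 12 for 45 and at day 3 for 34. The same counts and range were not taken over all genes, so these values alone show nothing particular to the members. The widest ranges belonged to rpl-11.1 (3.43), rpl-41.1 (2.78), rpl-24.2 (2.69), rpl-2 (2.38) and rps-7 (2.11). The single member that ran the other way was rpl-24.2, lowest in day 1 controls and highest in day 12 *hcf-1(-)* worms on EV.

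**Figure D2:**
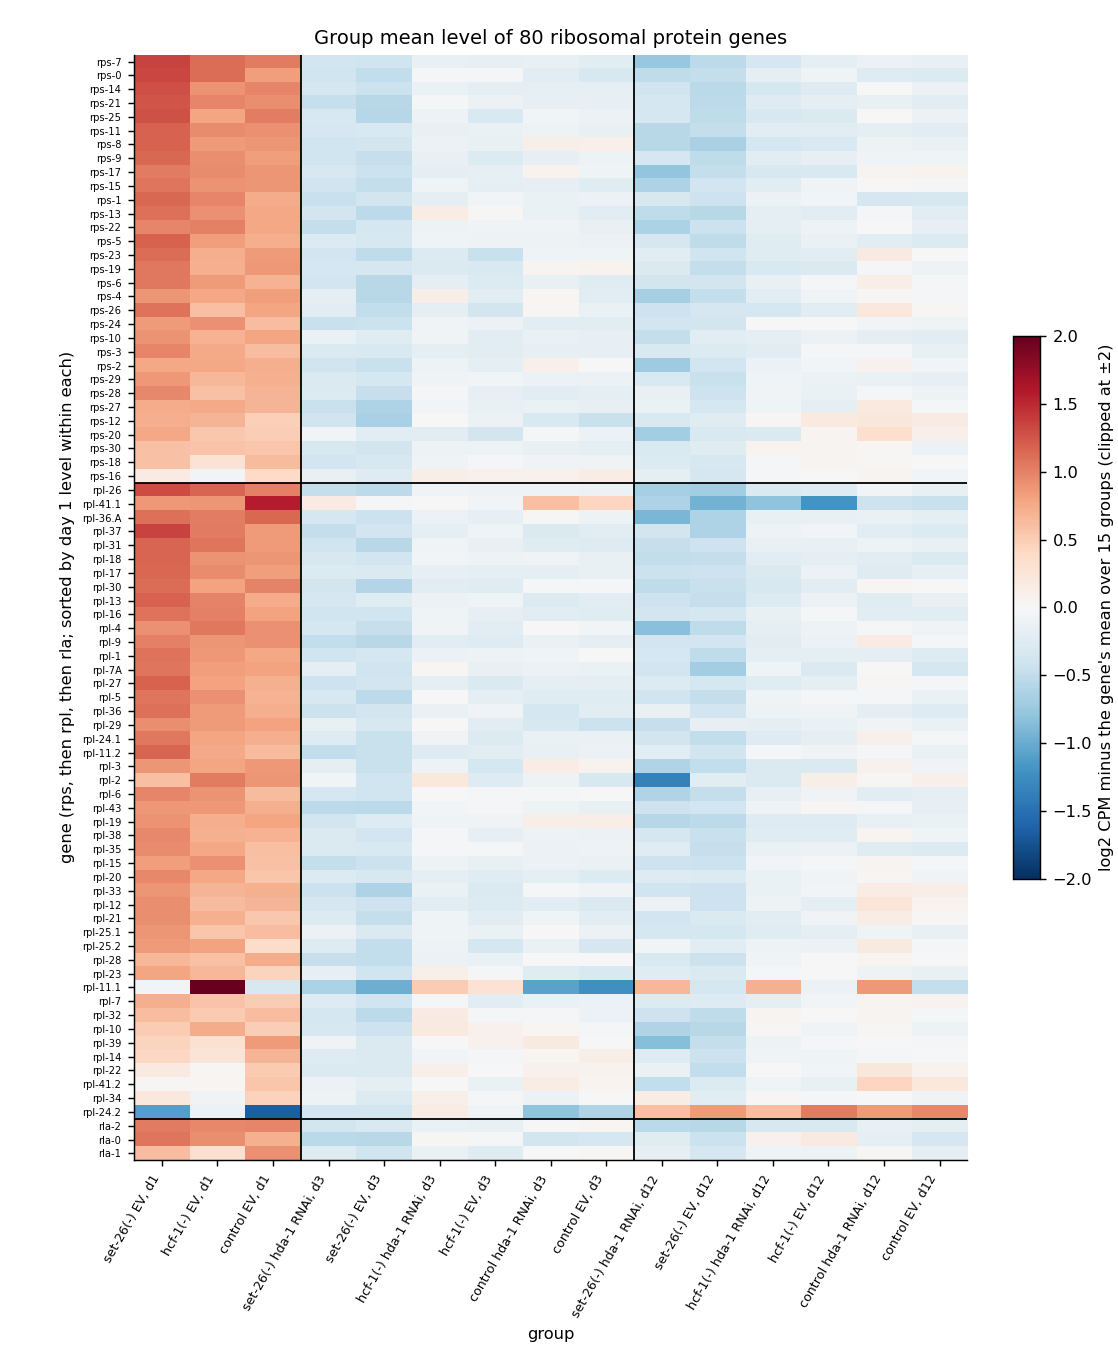
Group mean level of the 80 tested genes (running down the page, by subunit) in the 15 groups (columns, by day, then genotype, with *hda-1* RNAi left of EV), as log2 CPM minus the mean of each gene over the groups; red is above and blue below that mean. The highest of the 15 group means lies in a day 1 column for 79 of the 80 genes, the exception being rpl-24.2. No such count was taken over all genes.

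The comparison of day 12 with day 1 on EV asked how expression moved with age in each genotype. Relative to all other genes, ribosomal protein mRNAs were lower at day 12 in both mutants. In *set-26(-)* worms 75 members fell and 1 rose (median log2 fold change -1.48, or 0.36 times the day 1 level), where 21.1% of the 12896 genes tested fell and 20.9% rose with a median of 0.01. In *hcf-1(-)* worms 68 fell and 1 rose (median -0.998), where 20.5% of genes fell and 19.2% rose (median 0.00). In controls the median was -0.92, but 7 fell and 1 rose, where 26.8% of genes were called and 11.8% rose (median 0.04). The 2 subunits had medians of -1.51 for the rps and -1.46 for the rpl genes in *set-26(-)*, -1.002 and -0.999 in *hcf-1(-)*, and -0.95 and -0.88 in controls.

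In both mutants the same 67 members fell, and 7 of these fell in all 3 genotypes: rpl-41.1, rpl-36.A, rpl-37, rla-2, rps-7, rps-11 and rps-21. Most members fell in each mutant, so a large overlap follows from the single counts. The overlap was not counted over all genes. The difference of the mutant's change with age from that of controls, tested as an interaction in 12 libraries, had a median of -0.58 in *set-26(-)* (all genes -0.04), with 75 of 80 members negative, but no member passed with edgeR (3.43% of genes did; 8 members had an unadjusted p under 0.05, and DESeq2 called 0). It had a median of -0.10 in *hcf-1(-)* (all genes -0.05), which became 0.10, 0.07 or 0.08 without control day 1 replicate 2, *hcf-1(-)* day 1 replicate 1 or control day 12 replicate 1. The smaller count in controls is therefore not shown to be a difference between genotypes.

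The control count differed between settings of the fit. It was 8 with the 4 control libraries alone, 3 with the replicate number as a block (rpl-24.2, rpl-41.1 and rpl-36.A), 41 with DESeq2 and 66 with the further control libraries in the fit, and leaving out 1 library gave 2 to 5. Of all genes, 26.8% were called with the 4 libraries, 27.7% with DESeq2 and 37.2% with the further libraries, and the block called 2427 of 12115 (8.01% of genes rose). With plain library totals as the scale, the median of all genes itself moved up by 0.67 in *set-26(-)*, 0.43 in *hcf-1(-)* and 0.87 in controls. The medians of the members were then -0.81, -0.57 and -0.09 in the same order, below the median of all genes by 1.48, 0.99 and 0.96. On that scale 1 member rose and 49 fell in *set-26(-)*, where 43.2% of genes rose and 11.4% fell. In *hcf-1(-)* 1 rose and 47 fell, where 33.1% of genes rose and 13.7% fell, and in controls 1 rose and 1 fell, where 38.8% rose and 8.54% fell.

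The small subunit gene rps-7 (I:10330879-10331808) was at 902 and 845 CPM at day 12 in *set-26(-)*, against 3807 and 2727 CPM at day 1. In *hcf-1(-)* it was at 1142 and 1078 CPM against 3086 and 2440 CPM, and in controls at 1328 and 964 CPM against 2944 and 2259 CPM. No day 12 library reached any day 1 library of its genotype. The largest falls in *set-26(-)* were those of rpl-26 (II:8602785-8603581; log2 fold change -2.10 ± 0.32 (SE), adjusted p = 0.000322), rpl-37 (III:3528642-3528917; -2.10 ± 0.31, adjusted p = 0.000289) and rps-7 (-1.97 ± 0.30, adjusted p = 0.000402, all edgeR). In *set-26(-)* 5 members were not called lower (rpl-11.1, rpl-24.2, rpl-34, rpl-41.2 and rps-16). In *hcf-1(-)* there were 12, of which rpl-32 (adjusted p = 0.0535), rps-12 and rps-20 passed with the replicate number as a block (0.0242, 0.0319 and 0.0424), and among which rps-16 (-0.00 ± 0.21) and rpl-34 (-0.01 ± 0.20) were closest to 0.

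Day 3 set against day 1 gave medians of -1.41 in *set-26(-)*, -0.99 in *hcf-1(-)* and -0.93 in controls. In *set-26(-)* 74 members fell and 1 rose, where 13.2% of genes fell and 16.6% rose, and in *hcf-1(-)* 69 fell and 0 rose, where 12.9% of genes fell and 14.4% rose. In controls 35 fell and 1 rose, where 5.67% of genes fell and 4.32% rose. The 35 that fell in controls also fell in both mutants, where most members fell, and this overlap was not counted over all genes. The largest fall in controls was that of rpl-29 (-1.29 ± 0.25, adjusted p = 0.0270), followed by rps-7 (-1.28) and rpl-36.A (-1.27). With the replicate number as a block, 21 fell in controls (where 3.92% of genes fell) and none rose, rpl-14 fell too in *set-26(-)* (adjusted p = 0.00800), and rla-1, rpl-10, rpl-14, rpl-32 and rps-18 fell too in *hcf-1(-)* (adjusted p = 0.00161, 0.000511, 0.0453, 0.00199 and 0.0278). Leaving out either day 3 control library left no call (0.327% of genes were called without replicate 1 and 0.271% without replicate 2), leaving out day 1 replicate 1 gave 67 (25.9% of genes) and leaving out day 1 replicate 2 gave 80 (24.6%). In these fits 1 age has a single library, assumed to vary like the pair of the other age. The part of this in the counts was not tested. In the fit with all 4 libraries 79 members were negative. Without day 3 replicate 2, the counts were 20 in *set-26(-)* and 34 in *hcf-1(-)*, and without day 1 replicate 1 it was 38 in *hcf-1(-)*.

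Set against day 3, the day 12 controls had 2 members higher and 1 lower (median 0.01, or -0.07 to 0.21 with single libraries left out, where 12.4% of genes rose and 16.2% fell, median 0.04). The 2 that rose were rpl-24.2 (1.56 ± 0.24, adjusted p = 0.00180) and rpl-11.1 (0.76 ± 0.22, adjusted p = 0.0341), and rpl-41.1 fell (-0.88 ± 0.22, adjusted p = 0.0184). With library totals as the scale, all genes moved up by a median of 0.64 and the members by 0.62, and 41 members rose and 0 fell, where 38.0% of genes rose. Without either day 3 control library there was no call, and without day 12 replicate 1 or 2 there were 5 or 9.

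**Figure D3:**
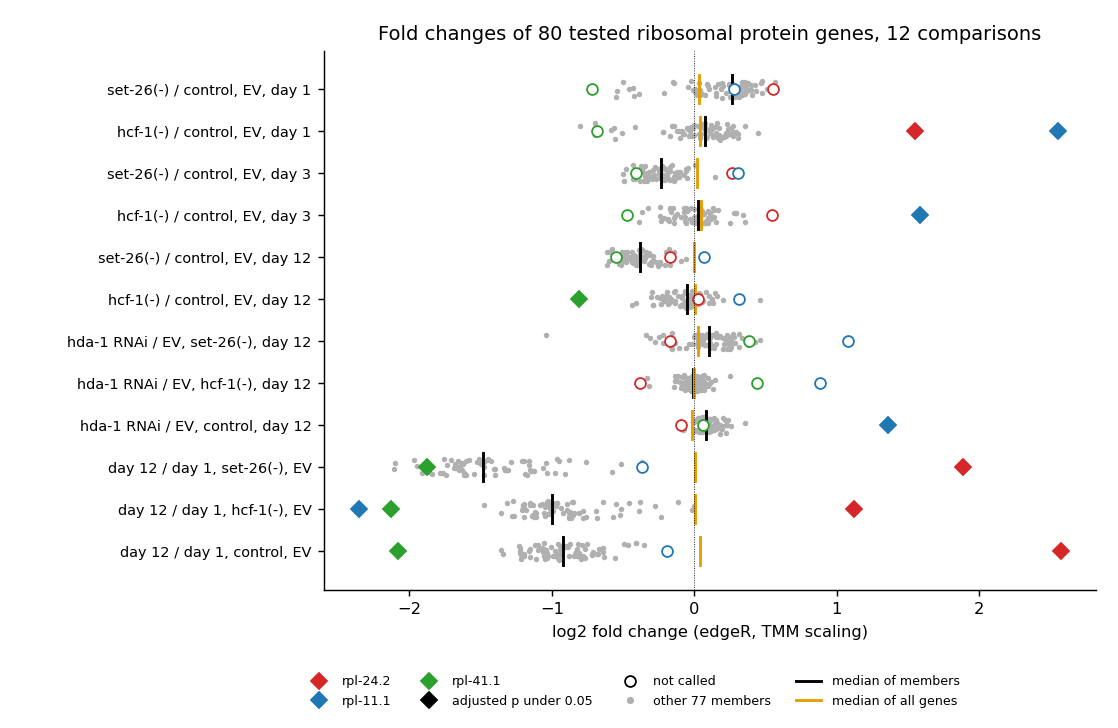
Log2 fold changes (edgeR, TMM scaling) of the 80 tested members in 12 comparisons, each named by the condition before the slash and what it was set against after it; grey points are single members, black ticks the median of the members, orange ticks the median of all genes, and filled diamonds an adjusted p under 0.05 for the 3 coloured genes. In the 3 age comparisons the black ticks lie at -1.48, -0.998 and -0.92 with rpl-24.2 on the far right, and in the genotype and food comparisons the black ticks lie within 0.38 of 0.

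Unlike the other members, rpl-24.2 (WBGene00004437, I:9669415-9670098) rose with age. Its product resembles the yeast protein Rlp24, which in yeast takes the place of Rpl24 on the large subunit during assembly and leaves before the particle is mature, so by role it belongs with the assembly factors. At day 12 it was at 243 and 226 CPM in *set-26(-)*, against 62.1 and 59.7 CPM at day 1. In *hcf-1(-)* it was at 272 and 265 CPM against 116 and 123 CPM, and in controls at 253 and 258 CPM against 38.0 and 45.3 CPM. The ages did not overlap in any genotype, and at day 12 the 3 genotypes lay within 226 to 272 CPM. The log2 fold changes were 1.89 ± 0.22 in *set-26(-)* (adjusted p = 6.3e-05), 1.12 ± 0.18 in *hcf-1(-)* (adjusted p = 0.000471) and 2.57 ± 0.28 in controls (adjusted p = 0.00261, edgeR), and each held under all 11 alternatives tried. At day 3 against day 1 it was 0.73 in *set-26(-)* (adjusted p = 0.0193), 0.04 in *hcf-1(-)* (adjusted p = 0.896) and 1.03 in controls (adjusted p = 0.0301, or 0.0514 with the replicate block).

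Of 33 tested genes for rRNA synthesis and nucleolar assembly, 7 rose and 2 fell at day 12 against day 1 in *set-26(-)* (median 0.24), and 9 rose and 0 fell in *hcf-1(-)* (median 0.22). In controls 19 rose and 0 fell (median 1.24), led by lpd-7 (2.93 ± 0.27, adjusted p = 0.00186) and nst-1 (2.82 ± 0.29, adjusted p = 0.00246, edgeR), which act in large subunit assembly. The other ribosomal proteins outside the rule, made as ubiquitin fusions by ubl-1 and ubq-2 or bound to the small subunit (rack-1), all fell in *set-26(-)* (3 of 3, median -1.45) and in *hcf-1(-)* (3 of 3, median -0.95), and none was called in controls (median -0.96). Of 6 elongation factor genes, 1 fell in each mutant and 0 in controls (medians -0.51, -0.15 and -0.17). Of the initiation factor genes, 7 rose and 6 fell of 34 tested in *set-26(-)*, 9 rose and 3 fell of 33 in *hcf-1(-)*, and 6 rose and 0 fell of 33 in controls, with medians of -0.02, 0.06 and 0.08. Of the mitochondrial ribosomal protein genes, 52 of 68 tested fell in *set-26(-)*, 42 of 68 in *hcf-1(-)* and 13 of 67 in controls, with 2 rising in each (medians -1.43, -0.95 and -0.41).

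Tissue markers changed with age beside these genes. The summed level of 5 body wall muscle genes was 898 to 913 CPM at day 12 in *set-26(-)*, against 5140 to 5300.1 CPM at day 1, 1177 to 1294 against 4414 to 5555 CPM in *hcf-1(-)*, and 691 to 820 against 4336 to 7543 CPM in controls. The sum of 7 intestinal genes was also lower at day 12 (1494 to 2141 against 4471 to 5273 CPM in *set-26(-)*, 1234 to 1548 against 4417 to 5530 CPM in *hcf-1(-)*, 1455 to 1530 against 5501 to 6157 CPM in controls), whereas that of 7 neuronal genes was higher (821 to 875 against 513 to 575 CPM, 831 to 912 against 496 to 569 CPM, and 933 to 954 against 531 to 657 CPM, in the same order of genotypes). The 5 epidermal and cuticle genes summed to 12.4 to 59.7 CPM in all EV libraries at day 12 and to 5346 to 11981 CPM at day 1. At day 3 on EV, muscle genes summed to 1642 to 1865 CPM in *set-26(-)*, 1693 to 1933 CPM in *hcf-1(-)* and 1694 to 1972 CPM in controls, and epidermal and cuticle genes to 399 to 506, 216 to 227 and 263 to 323 CPM, so both sums were already below every day 1 library. The intestinal sum at day 3 was 4349 to 5076, 3321 to 4135 and 3551 to 3692 CPM in the same order. The part of these shifts in the fall of the ribosomal protein genes was not tested.

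The mutants were next compared with controls of the same age and food. At day 1, no member passed in *set-26(-)* (0 of 80, where 8.64% of 12369 genes did), with a median of 0.26 against 0.03 for all genes. An unadjusted p under 0.05 was found for 2 members, and DESeq2 called 1, lower. In *hcf-1(-)* 2 members rose and 0 fell, where 7.76% of genes rose and 5.84% fell, and the median was 0.08 against 0.04. Both rises belonged to the large subunit group, rpl-11.1 and rpl-24.2. The share of reads in the members at day 1 was 16.1% ± 3.46 in *set-26(-)* and 16.4% ± 2.07 in *hcf-1(-)*, against 11.5% ± 2.39 in controls (SD, n = 2 each). With library totals the members' median was 0.54 in *set-26(-)* and 0.55 in *hcf-1(-)*, where all genes moved by 0.30 and 0.51, and 0 and 8 members rose (20.2% of genes rose in *hcf-1(-)*). Without *set-26(-)* replicate 1 the *set-26(-)* median was -0.05, and the *hcf-1(-)* median turned negative without control replicate 2 (-0.14, with 7 members called) or *hcf-1(-)* replicate 1 (-0.15).

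The gene rpl-11.1 (WBGene00004422, V:3585312-3586064) is 1 of 2 genes for a large subunit protein that binds 5S rRNA. At day 1 it was at 280 and 242 CPM in *hcf-1(-)*, at 63.2 and 46.5 CPM in *set-26(-)* and at 47.3 and 43.2 CPM in controls. Only the *hcf-1(-)* libraries stood apart (log2 fold change 2.55 ± 0.24 against controls, 5.86-fold, adjusted p = 0.00104, edgeR), and a comparison added after the data were seen put them 2.27 ± 0.24 above *set-26(-)* (adjusted p = 0.00835; 1.03% of genes were called). The call against controls held under all 13 alternatives. That against *set-26(-)* was lost without *set-26(-)* replicate 2 or either *hcf-1(-)* library. Over the same libraries its partner copy rpl-11.2 differed by 0.15 ± 0.32 from controls (adjusted p = 0.805).

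The assembly-type gene rpl-24.2 was at 116 and 123 CPM in *hcf-1(-)* at day 1, at 62.1 and 59.7 CPM in *set-26(-)*, and at 38.0 and 45.3 CPM in controls. The 3 genotypes did not overlap. It rose in *hcf-1(-)* (1.55 ± 0.21, adjusted p = 0.00337, edgeR, called under all 13 alternatives), while the difference of 0.55 ± 0.20 in *set-26(-)* did not pass (adjusted p = 0.135). The lowest values of a mutant were those of rpl-41.1 in *set-26(-)* (-0.72 ± 0.20, adjusted p = 0.0657) and of rla-1 in *hcf-1(-)* (-0.80 ± 0.49, adjusted p = 0.318). The large SE of rla-1, a stalk protein gene, came with 2086 and 1512 CPM in *hcf-1(-)* against 4811 and 1540 CPM in controls, whose replicates lay far apart.

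Around the members, genes of ribosome assembly and of the mitochondrial ribosome were higher in both mutants at day 1. Of the 33 assembly genes, 12 rose and 0 fell in *set-26(-)* (median 1.06) and 18 rose and 0 fell in *hcf-1(-)* (median 1.11). The strongest was wdr-12, whose product acts in large subunit assembly, at 353 and 212 CPM in *set-26(-)*, 66.3 and 66.9 CPM in *hcf-1(-)*, and 4.199 and 7.70 CPM in controls (log2 fold changes 5.57 ± 0.40 and 3.51 ± 0.37, adjusted p = 0.000468 and 0.00149, edgeR). Of 68 mitochondrial ribosomal protein genes, 25 rose in *set-26(-)* (median 1.07) and 17 in *hcf-1(-)* (median 0.64), with 0 falling in either. The leading one, mrps-34, was at 53.6 and 56.5 CPM in *set-26(-)*, 34.3 and 33.8 CPM in *hcf-1(-)*, and 5.73 and 8.08 CPM in controls. Of 34 initiation factor genes 1 and 3 rose, of 6 elongation factor genes none was called, and among 13 genes of the TOR pathway and its regulators aak-2 (-1.29, adjusted p = 0.0431) and skn-1 (-0.72, adjusted p = 0.0467) fell in *hcf-1(-)* and none passed in *set-26(-)*. Germline markers summed to 94.1 to 103 CPM in *hcf-1(-)*, 48.5 to 55.0 CPM in *set-26(-)* and 45.4 to 67.3 CPM in controls at day 1, and 2 of the 6 that could be tested rose in *hcf-1(-)* (syp-1 and mex-3) and none in *set-26(-)*. Of the epidermal and cuticle genes, 3 of 4 tested rose in *hcf-1(-)* (rol-6, dpy-7 and bli-1) and none in *set-26(-)*, while the summed level of all 5 was 5346 to 7272 CPM in *hcf-1(-)*, against 7737 to 11388 CPM in controls. The part of either list in the *hcf-1(-)* values of rpl-11.1 and rpl-24.2 was not tested.

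At day 3 on EV the members of *set-26(-)* worms lay slightly below controls. The median was -0.23 (all genes 0.02), both *set-26(-)* libraries were below both control libraries for 48 of 80 members, where this held for 28.7% of all genes, and no member passed (14.2% of genes did; 13 members had an unadjusted p under 0.05, and DESeq2 called 0). The lowest were rpl-30 (-0.50), rpl-33 (-0.49) and rpl-3 (-0.48, adjusted p = 0.0847). On library totals the median was -0.01, where all genes moved by 0.24. In *hcf-1(-)* worms rpl-11.1 alone rose, at 89.8 and 52.9 CPM against 25.7 and 22.4 CPM in controls (1.58 ± 0.26, adjusted p = 0.000344, edgeR), where 6.81% of genes rose and 7.29% fell. The median of the members was 0.03 (all genes 0.05) and turned negative without control replicate 2 (-0.05) or *hcf-1(-)* replicate 1 (-0.18). On library totals 23 members rose, where 23.3% of genes rose, with all genes moved up by 0.44. By day 3, 30 of 68 mitochondrial ribosomal protein genes rose in *set-26(-)* (median 0.96), against 8 that rose and 1 that fell in *hcf-1(-)* (median 0.46), and 3 and 8 of 33 assembly genes rose.

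At day 12 on EV the median was -0.38 in *set-26(-)* (all genes -0.00). Both *set-26(-)* libraries were below both control libraries for 51 of 80 members, where this held for 21.6% of all genes, but no member passed the test (4.67% of genes did; 20 members had an unadjusted p under 0.05, and DESeq2 called 0). The lowest were rps-17 (-0.61 ± 0.21, adjusted p = 0.138), rpl-22 (-0.61 ± 0.19, adjusted p = 0.108) and rpl-33 (-0.60 ± 0.22, adjusted p = 0.165). In *hcf-1(-)* the median was -0.05 (all genes 0.00; 0.10 on library totals, and 0.12 without control replicate 1), and rpl-41.1 alone fell, to 31.9 and 32.8 CPM in *hcf-1(-)* against 52.1 and 57.2 CPM in controls (-0.81 ± 0.20, adjusted p = 0.0462, edgeR), where 2.51% of genes fell. That call was lost on library totals, with only the 4 libraries compared in the fit, and without control replicate 2 or any 1 of the 4 mutant libraries (adjusted p up to 0.240). Set directly against each other, in a comparison added after the data were seen, 67 of 80 members were higher in both *hcf-1(-)* than in both *set-26(-)* libraries at day 12, where this held for 21.3% of genes, with a median of 0.32 and no call (0.838% of genes were called; 6 members had an unadjusted p under 0.05, and DESeq2 called 0). At day 3 the median of the same comparison was 0.24 and rpl-11.1 alone was higher (1.27 ± 0.25, adjusted p = 0.00339; 6.73% of genes were called), a call lost without *set-26(-)* replicate 2, and 11 members were higher without *hcf-1(-)* replicate 2.

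**Figure D4:**
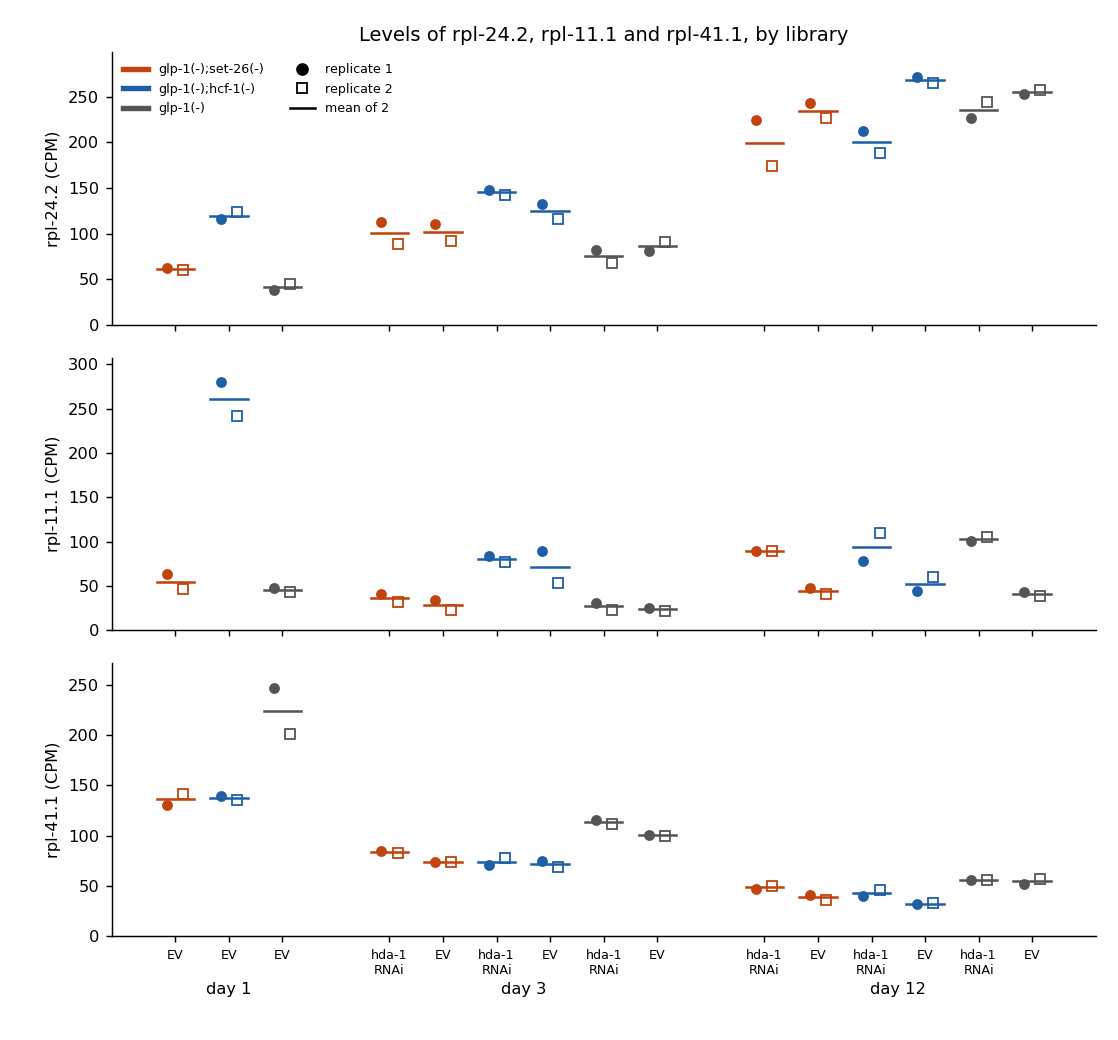
CPM (TMM-scaled over all 30 libraries, axes from 0) of rpl-24.2, rpl-11.1 and rpl-41.1 in every library, by day, genotype and food; circles are replicate 1, squares replicate 2 and lines the mean of 2. For rpl-24.2 the day 12 libraries lie highest, for rpl-11.1 the day 1 *hcf-1(-)* libraries (280 and 242 CPM), and for rpl-41.1 the day 1 controls (247 and 201 CPM).

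The change with age in *hcf-1(-)* worms differed from that in controls for the same 2 genes that were high in them at day 1. In *hcf-1(-)* rpl-11.1 fell by day 12 to 44.4 and 60.7 CPM, against 280 and 242 CPM at day 1 (-2.35 ± 0.22, adjusted p = 7e-06), while controls had 43.0 and 38.6 CPM against 47.3 and 43.2 CPM (-0.19 ± 0.24, adjusted p = 0.584). The interaction was -2.21 ± 0.34 (adjusted p = 0.00440, edgeR). For rpl-24.2, which rose in both, it was -1.50 ± 0.27 (adjusted p = 0.0101). Both passed under all 19 alternatives, where 2.51% of genes tested had a negative and 2.54% a positive difference. These interactions share the day 1 libraries with the comparisons at day 1 and are not independent of them. Of the 33 assembly genes 7 had a negative difference in *hcf-1(-)* and 6 in *set-26(-)*, with medians of -1.12 in both.

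Libraries labelled *hda-1* RNAi were compared with EV at days 3 and 12, with *hda-1* reads higher in them as given above. At day 3 no member passed in any genotype (edgeR and DESeq2 both 0; 0 members had an unadjusted p under 0.05), with medians of 0.08 in *set-26(-)*, 0.07 in *hcf-1(-)* and 0.04 in controls, and few genes passed at all (0.099%, 0.0159% and 0.0434%). Each of these medians turned to between -0.09 and -0.01 when replicate 2 of the EV group was left out. At day 12 the medians were 0.10, -0.01 and 0.08 in *set-26(-)*, *hcf-1(-)* and controls, and each changed sign when single libraries were left out (-0.08 without *set-26(-)* RNAi replicate 1, 0.05 without *hcf-1(-)* EV replicate 1, -0.05 without control EV replicate 2).

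The exception at day 12 was again rpl-11.1. In libraries labelled *hda-1* RNAi it was at 89.7 and 89.6 CPM in *set-26(-)*, against 47.5 and 41.0 CPM on EV. In *hcf-1(-)* it was at 78.6 and 110 CPM against 44.4 and 60.7 CPM, and in controls at 101 and 105 CPM against 43.0 and 38.6 CPM. The foods did not overlap in any genotype. It rose in controls (1.36 ± 0.22, adjusted p = 0.0473, edgeR), where 0.911% of genes rose, and this call was lost on library totals (adjusted p = 0.0507) or without any 1 of the 4 libraries. In *set-26(-)* it missed the threshold (1.08 ± 0.21, adjusted p = 0.0580; 1.21% of genes were called) and in *hcf-1(-)* too (0.88 ± 0.22, adjusted p = 0.0567; 5.38% were called). With the replicate number as a block it passed in *set-26(-)* (adjusted p = 9.21e-05), in *hcf-1(-)* (1.34e-07) and in controls (1.23e-09). Over the 3 genotypes together, in a fit added after the data were seen, the log2 fold change was 1.09 ± 0.13 (adjusted p = 0.000133, edgeR; 10.4% of genes rose), higher in all 6 pairs of libraries and called under all 19 alternatives. Its difference between mutant and control did not pass (-0.49 ± 0.31 in *hcf-1(-)*, adjusted p = 1.00; 0.0% of genes passed in either interaction of genotype and food, DESeq2 called no member, and 1 member in *set-26(-)* and 0 in *hcf-1(-)* had an unadjusted p under 0.05). In this fit over the 3 genotypes 2 of 10 tested germline markers rose, mex-3 (0.73, adjusted p = 0.0239) and syp-1 (0.56, adjusted p = 0.0215), beside rpl-11.1, and the marker sum at day 12 was 92.8 to 120, 80.2 to 86.4 and 69.6 to 77.9 CPM in *set-26(-)*, *hcf-1(-)* and control libraries labelled *hda-1* RNAi, against 72.0 to 79.4, 62.9 to 72.4 and 64.1 to 78.3 CPM on EV. Their part in the rise was not tested.

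In *set-26(-)* worms at day 12, the large subunit gene rpl-2 (V:20479689-20480834), for a protein near the peptidyl transferase centre, was at 52.0 and 32.3 CPM in libraries labelled *hda-1* RNAi, against 91.4 and 89.3 CPM on EV. The foods did not overlap (-1.04 ± 0.27, adjusted p = 0.115, or 0.0002685 with the replicate block). With the block 2 members passed in *set-26(-)*, rpl-11.1 and rpl-2, and 5 in *hcf-1(-)*: rpl-11.1, rpl-41.1 and rpl-7A higher, rpl-2 and rpl-24.2 lower, where the block called 16.6% and 21.9% of all genes. Over the 3 genotypes 4 passed with it, where 24.6% of genes did. Among libraries labelled *hda-1* RNAi at day 12, *set-26(-)* differed from controls in rps-20 (-1.05 ± 0.24, adjusted p = 0.0428) and rpl-41.2 (-0.94 ± 0.21, adjusted p = 0.0423), both lower, where 1.15% of genes fell, with rpl-2 lowest of all at -1.33 ± 0.32 (adjusted p = 0.0523). The median was -0.35 (all genes -0.01), and both *set-26(-)* libraries lay below both controls for 51 members, where this held for 23.9% of genes. rps-20 was at 33.8 and 28.4 CPM in *set-26(-)* against 69.7 and 58.7 CPM in controls. DESeq2 called 7 members lower there (2.53% of genes), and leaving out any library left at most 1 call. In *hcf-1(-)* no member passed (median -0.17, all genes 0.02, and -0.01 on library totals, where all genes moved by 0.18; 4.31% of genes were called, 2 members had an unadjusted p under 0.05, and DESeq2 called 0). Among those labelled *hda-1* RNAi at day 3, in comparisons added after the data were seen, rpl-11.1 (1.59 ± 0.21, adjusted p = 0.000670) and rpl-24.2 (0.97 ± 0.19, adjusted p = 0.00670) rose and rpl-41.1 fell (-0.60 ± 0.17, adjusted p = 0.0417) in *hcf-1(-)*, where 5.77% of genes rose and 5.54% fell, and without control replicate 2 or other single libraries 1 to 3 members were called. On library totals 21 rose and 0 fell, where 16.4% of genes rose and all genes moved up by a median of 0.36, against 0.37 for the members. In *set-26(-)* no member passed (median -0.21; 9.43% of genes were called, 17 members had an unadjusted p under 0.05, and DESeq2 called 1).

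Several of these proteins are encoded by 2 gene copies, whose balance can be read within a library, free of scaling. Counts of near-identical copies depend on reads that map to a single place, so the balance itself is uncertain while its shifts between groups compare like with like. rpl-11.1 made up 6.67% ± 0.50 of the reads of the rpl-11 pair in day 1 *hcf-1(-)* worms, against 1.12% ± 0.12 in *set-26(-)* and 1.35% ± 0.21 in controls (SD, n = 2 each). At day 12 it made up 4.62% ± 0.43, 4.28% ± 0.72 and 4.66% ± 0.56 in *set-26(-)*, *hcf-1(-)* and controls labelled *hda-1* RNAi, against 2.62% ± 0.14, 2.49% ± 0.48 and 2.04% ± 0.09 on EV. The other copy, rpl-11.2 (X:2241738-2242618) carried at least 93.3% of the reads of the pair in every group.

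The rpl-41 pair codes for the smallest ribosomal protein, and its copies lie side by side on chromosome I (rpl-41.1 at 4789190-4789592, rpl-41.2 at 4790292-4790642). In controls on EV rpl-41.1 took 5.18% ± 0.71 of the pair at day 1, 3.36% ± 0.30 at day 3 and 1.68% ± 0.39 at day 12. In *set-26(-)* the shares were 4.58% ± 0.53, 2.94% ± 0.36 and 1.64% ± 0.06, and in *hcf-1(-)* 4.58% ± 0.63, 2.74% ± 0.07 and 1.27% ± 0.10. The share was lower at each later age in every genotype. From day 1 to day 12 rpl-41.1 fell in *set-26(-)* (-1.88 ± 0.22, adjusted p = 6.54e-05), *hcf-1(-)* (-2.13 ± 0.19, adjusted p = 4.91e-06) and controls (-2.08 ± 0.27, adjusted p = 0.00466, edgeR), a call that held under all 11 alternatives in each, while rpl-41.2 was at -0.37 ± 0.29, -0.24 ± 0.21 and -0.41 ± 0.37 (adjusted p = 0.333, 0.404 and 0.450). At day 1 rpl-41.1 was at 131 and 141.9 CPM in *set-26(-)*, 139 and 135 CPM in *hcf-1(-)*, and 247 and 201 CPM in controls, so both mutants lay below controls without overlap, and neither difference passed (adjusted p = 0.0657 and 0.0615).

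Of the rpl-25 pair, rpl-25.2 took 32.3% of the reads in day 1 *hcf-1(-)* and 28.2% in *set-26(-)*, against 25.3% in controls, and between 29.6% and 32.9% in the day 12 groups. Both copies fell with age in *set-26(-)* (rpl-25.1 -1.32, adjusted p = 0.00388; rpl-25.2 -1.15, adjusted p = 0.00588) and in *hcf-1(-)* (-0.78 and -0.97), and neither passed in controls. Of the rpl-24 pair, rpl-24.1, which codes for the protein of the mature subunit, fell to 1422 and 1236 CPM in *set-26(-)* at day 12, against 4685 and 3213 CPM at day 1 (-1.63 ± 0.32, adjusted p = 0.00173). The share of rpl-24.2 in that pair was 15.03%, 13.9% and 12.3% in *set-26(-)*, *hcf-1(-)* and controls at day 12, against 1.57%, 3.60% and 1.36% at day 1.

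**Figure D5:**
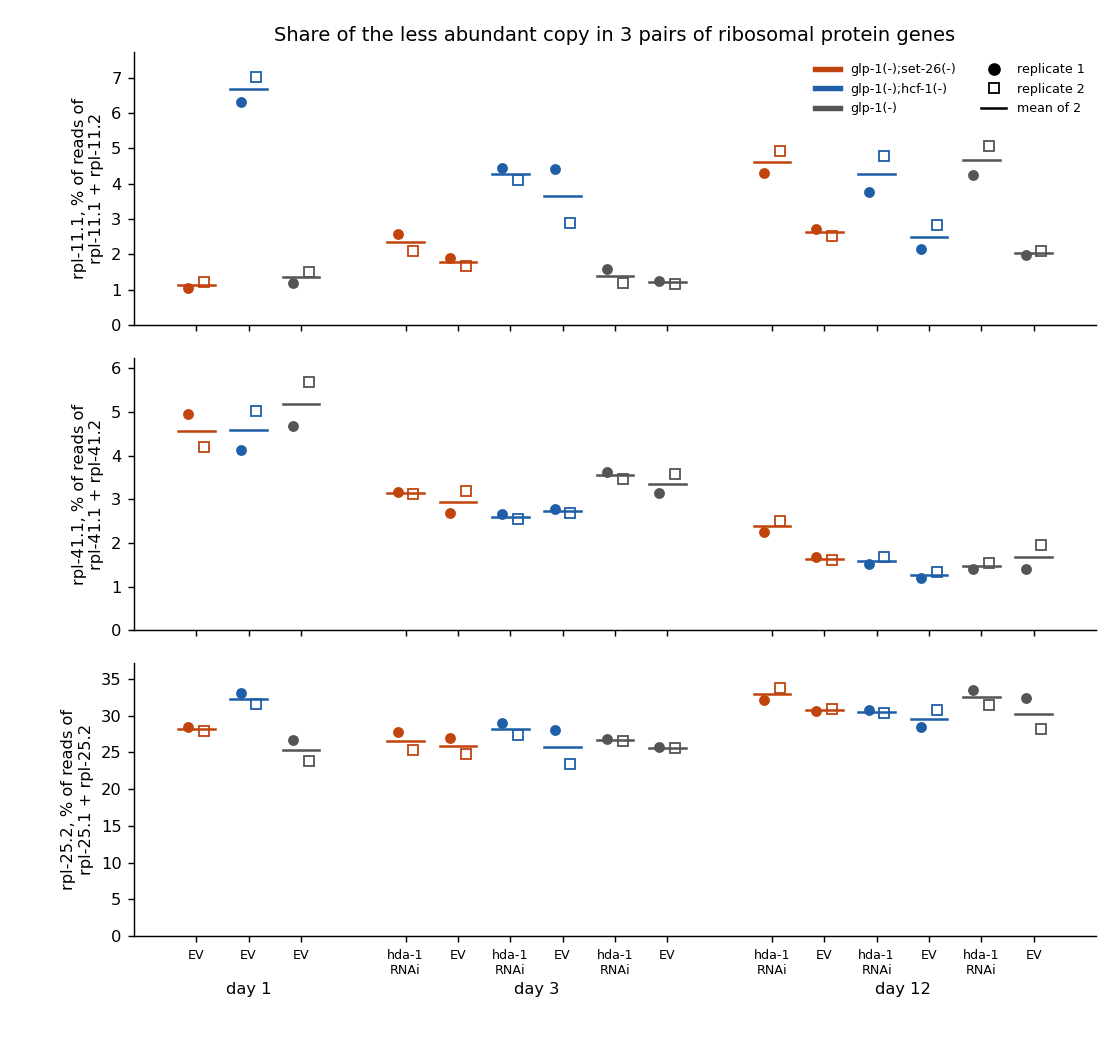
Reads of the less abundant copy as a percent of the reads of both copies (axes from 0), in every library, for rpl-11.1, rpl-41.1 and rpl-25.2; circles are replicate 1, squares replicate 2 and lines the mean of 2. The share of rpl-11.1 is highest in day 1 *hcf-1(-)* worms (mean 6.67%), and that of rpl-41.1 is lower at each later day on EV (5.18%, 3.36% and 1.68% in controls).

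At day 12 against day 1 on EV the fold changes of the 3 stalk genes were negative in every genotype, but not all were called. rla-0, for the protein P0 that anchors the stalk, was at 1159 and 996 CPM in *set-26(-)* at day 12, against 3902 and 2359 CPM at day 1 (-1.60 ± 0.33, adjusted p = 0.00245). In *hcf-1(-)* it was at 1653 and 1628 CPM against 3239 and 2354 CPM (-0.81 ± 0.22, adjusted p = 0.0111), and in controls at 1295 and 1012 CPM against 2947 and 1904 CPM (-1.12 ± 0.36, adjusted p = 0.0661). It was the highest member of *hcf-1(-)* against controls at day 12 (0.46 ± 0.20, adjusted p = 0.217), where its libraries did not overlap. rla-2 (P2) fell in all 3 genotypes (-1.66, -1.32 and -1.22, adjusted p = 0.000768, 0.000479 and 0.0461, or 0.0554 in controls with the replicate block), and rla-1 (P1) in *set-26(-)* only (-1.03 ± 0.29, adjusted p = 0.0151), with -0.46 in *hcf-1(-)* and -1.34 ± 0.56 in controls, a difference between genotypes that did not pass (adjusted p at least 0.457). Reads of rps-4, rpl-5, rpl-7 and rpl-23 are uncertain because a protein-coding gene overlaps each on the same strand, and none of the calls singled out above rests on them. A snoRNA or miRNA gene overlaps other members on the same strand, among them rpl-2, rpl-7A, rpl-24.1, rpl-26 and rps-20, which are named above. The part of these overlaps in the counts was not tested.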

How the data were processed

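RNA of pooled germline-less worms was measured by QuantSeq 3′ mRNA sequencing in 30 libraries. The authors aligned trimmed reads to WBcel235 with STAR 2.7.9a (the submitters' processing notes also name Trim Galore 0.6.5 and FastQC) and deposited the counts of uniquely mapped reads per gene, with no normalization. Totals per library are given in the report. They limit the precision of low genes, and levels of different genes set against each other from 3′ reads are uncertain, also between gene copies.

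Counts were fitted with edgeR 4.0.16 (quasi-likelihood test, TMM factors, limma 3.58.1, R 4.3.3) after keeping genes with more than 10 reads in at least 2 libraries of a fit. P-values were adjusted by Benjamini-Hochberg over all genes kept, and 0.05 was the threshold. Comparisons of genotypes used the 6 libraries of a day and food, comparisons of foods and ages the 4 libraries compared, and the interactions 12 libraries. SE stands for standard error. CPM per library used TMM factors over all 30 libraries. Alternatives were the replicate number as a block, DESeq2 1.42.0, library totals, DESeq2 size factors, TMM factors without the members, no filter, a fit with fewer or more libraries, and leaving out single libraries. The steps were run on simulated data for some of the comparisons. These data had the same fixed spread for all genes and no shift in RNA composition between groups, so they do not test the scaling used here.

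The members, gene lists and tests were chosen with earlier results of these data known, and 8 of the 31 comparisons were added after seeing these values (both mutants with each other, genotypes within libraries labelled *hda-1* RNAi at day 3, day 3 against day 1 in the mutants, and the foods over all genotypes). Named genes are numbered gene copies, the rla genes, the 3 highest and 3 lowest members of a comparison, the 5 widest ranges, members under 50 reads per library, and the 2 most changed of other lists. Genes named in a short list of calls beyond these were chosen after their values were seen. The paper describes worm populations that were sampled at day 1, divided between foods and sampled again later. Libraries with the same number were taken to come from the same population, which the labels do not state. On that reading food and age comparisons are paired. The main fits left this pairing out, and the report gives the blocked p-values or counts of calls where calls changed. Deviations of same-numbered libraries correlated at 0.16 to 0.46 over all genes between foods and at 0.00 to 0.35 between ages. Over the members they correlated at 0.04 to 0.70 between foods and at -0.06 to 0.48 between ages. Replicates of a group are separate libraries, and nothing in the labels says more of their origin, so p-values measure only the spread between them.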

Additional observations from a re-analysis of the deposited data

Results flagged for a closer look

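The change with age in *hcf-1(-)* worms differed from that in controls for 2 ribosomal protein genes, by a test of the difference itself over day 12 and day 1 libraries on EV (quasi-likelihood in edgeR, p-values adjusted by Benjamini-Hochberg). For rpl-11.1 the change in *hcf-1(-)* minus that in controls was -2.21 ± 0.34 (SE) on the log2 scale (adjusted p = 0.00440), and it lay between -2.56 and -1.99 under the 19 alternatives tried (largest adjusted p 0.0299). For rpl-24.2 it was -1.50 ± 0.27 (adjusted p = 0.0101), between -1.85 and -1.39 under the same alternatives (largest adjusted p 0.0485). Every *hcf-1(-)* library at day 1 lay above every control library at day 1 for both genes.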

How the results depend on the processing

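With 2 libraries a group, counts of calls moved more than fold changes did. No fitted value of a named gene reversed while called. The calls of rpl-11.1 and rpl-24.2 in *hcf-1(-)* at day 1 and in the interaction of age with *hcf-1(-)*, and the age changes of rpl-24.2 and rpl-41.1 at day 12 against day 1, held under every alternative tried. The cause of the moved counts was not tested. All counts below are of members called, with the value in parentheses that of the report's fit. The share of all genes called moved with the setting too, so a moved count alone shows nothing particular to the members. For food at day 12 the block called 16.6% of genes in *set-26(-)* and 21.9% in *hcf-1(-)*, against 1.21% and 5.38% in the report's fit.

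With the replicate block, which pairs libraries by number, calls against controls were 1 in *set-26(-)* (0) at day 1, 9 in *set-26(-)* (0) and 4 in *hcf-1(-)* (1) at day 3, and 2 in *set-26(-)* (0) at day 12. Among libraries labelled *hda-1* RNAi they were 15 in *set-26(-)* (2) and 2 in *hcf-1(-)* (0) at day 12 and 3 in *set-26(-)* (0) at day 3, and *hcf-1(-)* against *set-26(-)* at day 3 gave 8 (1). Genotypes share only a number (deviations correlated at -0.04 to 0.36 over all genes and at -0.08 to 0.56 over the members). In the comparisons of ages and foods, taken as paired, the block gave 3 (8) and 21 (36) for days 12 and 3 against day 1 in controls. For food at day 12 it gave 2 in *set-26(-)* (0), 5 in *hcf-1(-)* (0) and 4 over all genotypes (1). It moved no other count of calls by over 1.5 times.

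DESeq2 called 1 in *set-26(-)* at day 1, 7 in *set-26(-)* in libraries labelled *hda-1* RNAi at day 12 and 1 at day 3, 2 in *hcf-1(-)* against *set-26(-)* at day 1, 41 and 64 for days 12 and 3 against day 1 in controls, and 2, 1 and 2 for food at day 12 in *set-26(-)*, *hcf-1(-)* and all genotypes.

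Library totals gave 8, 23 and 0 in *hcf-1(-)* at days 1, 3 and 12, 0 in *set-26(-)* and 21 in *hcf-1(-)* in those labelled *hda-1* RNAi at days 12 and 3, 0 for food in controls at day 12, 2 in controls and 50 in *set-26(-)* at day 12 against day 1, 41 at day 12 against day 3, and 2 and 7 for *hcf-1(-)* against *set-26(-)* at days 1 and 3.

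Without the filter on low counts there were 1 in *set-26(-)* and 5 in *hcf-1(-)* at day 1, 3 and 2 at day 3, 8 and 2 in *set-26(-)* in those labelled *hda-1* RNAi at days 12 and 3, 2, 1 and 2 for food at day 12 in *set-26(-)*, *hcf-1(-)* and all genotypes, 26 for day 12 against day 1 in controls, and 2 and 4 for *hcf-1(-)* against *set-26(-)* at days 1 and 3.

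With other libraries in the fit there were 3 in *set-26(-)* at day 3, 0 in *hcf-1(-)* at day 12, 0 and 1 in *set-26(-)* in those labelled *hda-1* RNAi at days 12 and 3, 1 for food at day 12 in *set-26(-)* and 3 over all genotypes, 66 and 56 for days 12 and 3 against day 1 in controls, and 2 for *hcf-1(-)* against *set-26(-)* at day 1.

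Leaving out 1 library at a time, which in comparisons of foods or ages leaves 1 group with a single library assumed to vary like the other group, gave ranges of 2 to 7 in *hcf-1(-)* at day 1 (7 without control replicate 2), 0 to 3 in *set-26(-)* at day 3 (3 without either *hcf-1(-)* library), 1 to 3 in *hcf-1(-)* at day 3 (3 without *hcf-1(-)* replicate 2), and 0 to 1 in *hcf-1(-)* at day 12. Among those labelled *hda-1* RNAi the ranges were 0 to 1 in *set-26(-)* at day 12, 0 to 1 in *set-26(-)* and 1 to 3 in *hcf-1(-)* at day 3. For food at day 12 they were 0 to 2 in *set-26(-)* (2 without RNAi replicate 1), 0 to 1 in *hcf-1(-)* (1 without EV replicate 2 or RNAi replicate 1), 0 to 0 in controls and 1 to 2 over all genotypes (2 without either *set-26(-)* RNAi library or *hcf-1(-)* RNAi replicate 1). For day 12 against day 1 they were 53 to 75 in *set-26(-)*, 56 to 72 in *hcf-1(-)* and 2 to 5 in controls, for day 3 against day 1 they were 20 to 79, 34 to 71 and 0 to 80, and for day 12 against day 3 in controls 0 to 9. For *hcf-1(-)* against *set-26(-)* they were 0 to 2 at day 1 and 0 to 11 at day 3.

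As a share of the reads of protein-coding genes, the members held 7.53% in controls at day 3, 10.03% in *set-26(-)* and 12.4% in *hcf-1(-)* at day 12, and in libraries labelled *hda-1* RNAi 10.2% in *hcf-1(-)* and 7.89% in controls at day 3 and 12.4% in *hcf-1(-)* and 12.6% in controls at day 12. Among the members only rpl-42 had too few reads to be tested, and the reason was not tested.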
